A study of Mus musculus with 28 samples.

Results

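The genes of the basement membrane and network collagens were examined in bulk RNA-sequencing of mouse tail tendon fascicles. They are *Col4a1* to *Col4a6* of collagen IV, *Col8a1* and *Col8a2* of collagen VIII, *Col15a1* and *Col18a1*. They were chosen by name as the collagen IV, VIII, XV and XVIII families, and all 10 were found among the 25719 gene identifiers of the count table. The series holds 28 libraries, each from 1 mouse of the C57BL/6 background. There were 7 wild-type (WT) and 8 Fosl-2(Tg) mice at the early stage, against 6 and 7 at the established stage. Fosl-2(Tg) mice, a model of systemic sclerosis, carry a murine Fosl-2 transgene under the MHC class I promoter H2Kb, which is active in most tissues, with an eGFP reporter, inserted at random in the genome. WT mice were nontransgenic mice of the same breeding. Early mice were 6 to 8 weeks old and established mice were older than 14 weeks. The early cohort was all male (15 mice), whereas the established cohort had 11 females and 2 males, 1 of each genotype, so that cohort, age and sex cannot be told apart. The labels name no treatment.

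Basement membranes are thin sheets of matrix under epithelia and endothelia and around muscle fibers, Schwann cells and adipocytes. Their scaffold is a network of collagen IV, built from triple helices of 3 chains that join end to end instead of packing into fibrils, and it is linked to a network of laminins by nidogens and perlecan. In tendon, the fibrillar collagens I and III carry load, and basement membrane is found around vessels, nerves and in the thin sheets that cover the tissue. The α1 and α2 chains form the collagen IV found in nearly every basement membrane, whereas the α3 to α6 chains form networks known best from kidney, lung, eye and skin. Collagen VIII forms hexagonal lattices, as in the Descemet membrane of the cornea, and collagens XV and XVIII carry glycosaminoglycan side chains and lie at the junction of basement membrane and stroma.

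The collagen IV genes lie in head-to-head pairs, and the start of the pair of major chains is short enough to print whole. *Col4a1* (ENSMUSG00000031502, minus strand, chr8:11248423-11362826) and *Col4a2* (ENSMUSG00000031503, plus strand, chr8:11362471-11499287) overlap at their first exons in GRCm39, and their RefSeq start sites overlap by 21 bases. The 22 bases from one start site to the other, chr8:11362805-11362826 on the plus strand, hold 1 GC box, here in capitals (GGGCGG on either strand).
Col4a1 and Col4a2: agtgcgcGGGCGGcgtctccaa
*Col4a3* (ENSMUSG00000079465, plus strand, chr1:82564642-82699780) and *Col4a4* (ENSMUSG00000067158, minus strand, chr1:82426144-82564800) share their start region in the same way. *Col4a5* (ENSMUSG00000031274, plus strand, chrX:140258354-140472231) and *Col4a6* (ENSMUSG00000031273, minus strand, chrX:139948399-140257072) have RefSeq start sites 1343 bases apart. The promoters of *Col4a5* and *Col8a1* are shown because these genes were lower in established Fosl-2(Tg) mice and the bases before their starts lie outside annotated exons. Capitals mark GC boxes and the CCAAT box (CCAAT on either strand) in the 189 bases before the first annotated exon of *Col4a5*, chrX:140258165-140258353 on the plus strand, and in the 250 bases before the RefSeq start of *Col8a1*, chr16:57575101-57575350, read on the minus strand.
Col4a5: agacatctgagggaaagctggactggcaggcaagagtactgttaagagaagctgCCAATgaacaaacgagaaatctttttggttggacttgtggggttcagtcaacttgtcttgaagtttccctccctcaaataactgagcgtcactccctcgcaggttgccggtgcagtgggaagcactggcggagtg
Col8a1: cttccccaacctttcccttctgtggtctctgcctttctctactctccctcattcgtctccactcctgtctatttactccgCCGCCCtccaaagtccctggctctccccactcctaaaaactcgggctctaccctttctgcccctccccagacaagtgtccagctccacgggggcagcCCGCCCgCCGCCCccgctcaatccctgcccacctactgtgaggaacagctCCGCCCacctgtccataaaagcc
The *Col8a1* stretch held 4 GC boxes and no CCAAT box, and the *Col4a5* stretch held 1 CCAAT box. The 250 bases before a RefSeq start were given for 9 of the 10 genes, in 10 windows. Since the transgene encodes an AP-1 subunit, the AP-1 motif TGANTCA was searched on both strands, and none of these windows held it, against 6.75% of 32851 mouse promoters of the same length. CCAAT was found in 33.8% of those promoters and GGGCGG in 32.7%. Sequences are from RefSeq on GRCm38.p6 and were placed on GRCm39 by exact match. A match of letters is a description of the window only.

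The remaining genes are not paired. *Col8a1* (ENSMUSG00000068196) lies at chr16:57444621-57575100 on the minus strand and *Col8a2* (ENSMUSG00000056174) at chr4:126180559-126208123 on the plus strand. *Col15a1* (ENSMUSG00000028339) lies at chr4:47207582-47313179 on the plus strand and *Col18a1* (ENSMUSG00000001435) at chr10:76888012-77002390 on the minus strand. Genes on opposite strands that share exon bases cannot be separated by a library kit that does not mark strand. *Col4a1* and *Col4a2* share 311 exon bases, *Col4a3* and *Col4a4* share 159, and *Col18a1* shares 896 with *Slc19a1*, a folate transporter gene.

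Library totals ranged from 9645598 to 66894396 counts. Values per mouse are counts relative to library size after TMM scaling over the 28 libraries, in CPM. Tendon identity was checked with 7 tenocyte markers, among them *Scx* and *Tnmd*, all of which were detected. Their summed level ran from 19132 to 39270 CPM in both early groups and from 19297 to 34055 CPM in established WT, but from 1755 to 27442 CPM in established Fosl-2(Tg), with a median of 11914 CPM. The lowest value was that of the male Fosl-2(Tg) mouse, replicate 5. Fits and ratio tests were also run without it, and those values are given for some results only. Correlations were not computed without it. Skeletal muscle markers (11 genes) summed to between 160 and 55060 CPM over the 28 mice, in both genotypes and cohorts. In bulk tissue, fewer cells of a type and less RNA per cell cannot be told apart. The transgene was not separable from the endogenous gene in these counts, and *Fosl2* differed by a log2 fold change of 0.20 (SE 0.24, edgeR adjusted p = 0.918) in the early cohort and 0.38 (SE 0.15, adjusted p = 0.141) in the established cohort, neither past the threshold.

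Per kilobase of exon, *Col15a1*, *Col8a2* and *Col4a2* were the genes of highest mean level in WT tendons. In early WT mice, *Col15a1* stood at 81.7 ± 19.8 CPM per kilobase (SD, n = 7) and *Col8a2* at 61.8 ± 14.2, and the values of these neighbors overlapped between mice. *Col4a2* followed at 25.3 ± 2.68, *Col8a1* at 22.9 ± 12.8 and *Col4a1* at 15.5 ± 3.49 CPM per kilobase, each overlapping the next. *Col4a2* and *Col4a1* lay below *Col8a2* without overlap, whereas the highest *Col8a1* value exceeded the lowest *Col8a2* value. Below a gap without overlap came *Col4a4* (3.18 ± 1.32), *Col18a1* (1.97 ± 1.03) and *Col4a3* (1.52 ± 0.894 CPM per kilobase), whose values overlapped, and then *Col4a5* (0.224 ± 0.142) and *Col4a6* (0.0416 ± 0.00640), each below the gene before it in every mouse. Established WT mice kept this order except that *Col4a1* (15.8 ± 3.84) and *Col8a1* (15.0 ± 10.4 CPM per kilobase, n = 6) changed places, with overlapping values. In established Fosl-2(Tg) mice, *Col15a1* was the third, at 17.8 ± 12.2 CPM per kilobase (SD, n = 7), after *Col8a2* (35.9 ± 18.1) and *Col4a2* (23.7 ± 2.44), with overlap from each to the next. *Col4a5* was last there, at 0.0469 ± 0.0212, overlapping *Col4a6* at 0.0565 ± 0.0213 CPM per kilobase.

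**Figure D1:**
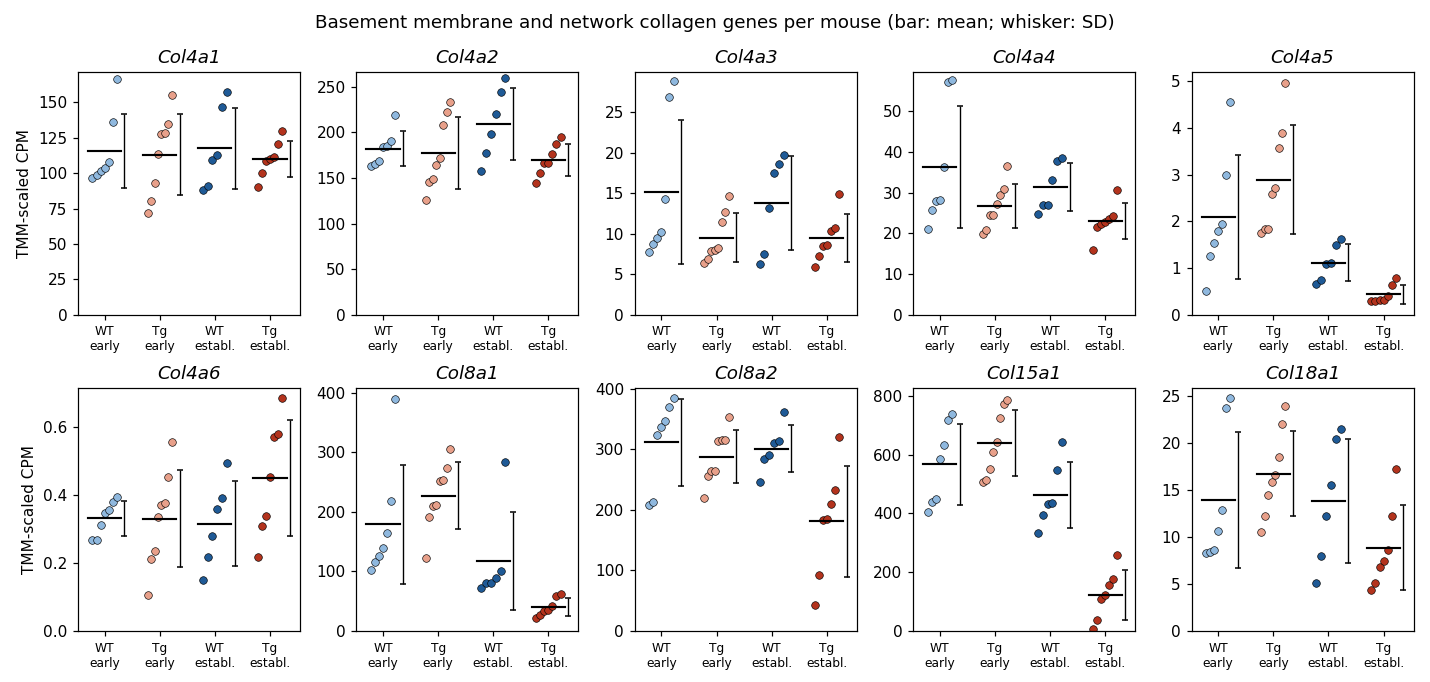
TMM-scaled CPM (vertical axes, linear, from 0) of the 10 genes in the 28 mice by group; each point is 1 mouse, horizontal bars are group means and whiskers SD. In the established cohort all 7 Fosl-2(Tg) mice lie below all 6 WT mice for *Col8a1* and *Col15a1*, whereas the *Col4a1* values of both genotypes share 1 range.

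The genotype comparison asked whether transcription differed between Fosl-2(Tg) and WT tendons at each stage. In the early cohort none of the 9 genes tested was called at an adjusted p of at most 0.05 (edgeR quasi-likelihood test, Benjamini-Hochberg adjustment). Over all 15138 genes tested, 6 were called, or 0.0396%. At an unadjusted p under 0.05, 1 of the 9 genes passed, *Col4a3*, against 6.06% of all genes, and DESeq2 called none of the 9 either. In the established cohort 3 of 9 genes were called, all lower in Fosl-2(Tg): *Col15a1*, *Col8a1* and *Col4a5*. These are 33.3% of the genes tested, against 6.51% of all 15862 genes called and 3.37% called lower. All 9 genes had negative log2 fold changes, with a median of -0.63 beside 0.01 over all genes tested, and 6 of 9 were lower at an unadjusted p under 0.05, against 13.1% of all genes. *Col4a6*, at 2 to 27 counts per library, was below the count filter in both cohorts.

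*Col4a1* and *Col4a2*, the major chains, were not called between the genotypes in either cohort. *Col4a1* had lowest, median and highest values of 96.9, 104 and 167 CPM in early WT and 72.1, 121 and 155 CPM in early Fosl-2(Tg) mice. Established values were 88.0, 111 and 157 CPM in WT and 90.0, 110.2 and 129 CPM in Fosl-2(Tg). All Fosl-2(Tg) values of the established cohort lay within the range of WT. The log2 fold change of *Col4a1* was -0.03 (SE 0.17, adjusted p = 0.982) in the early and -0.09 (SE 0.14, adjusted p = 0.708) in the established cohort. The established sign turned positive with library totals, with voom and in females alone. *Col4a2* stood at 163, 184 and 218 CPM in early WT and at 125, 168 and 233 CPM in early Fosl-2(Tg) mice, a log2 fold change of -0.04 (SE 0.13, adjusted p = 0.974). Established mice had 157, 209 and 259 CPM in WT and 145, 166 and 195 CPM in Fosl-2(Tg). There 4 of 6 WT mice lay above the highest Fosl-2(Tg) mouse and 2 of 7 Fosl-2(Tg) mice below the lowest WT mouse. The established log2 fold change of *Col4a2* was -0.29 (SE 0.12, edgeR unadjusted p = 0.0280, adjusted p = 0.141). It did not pass the threshold, and scaling by library totals alone turned its sign.

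Since α1 and α2 chains are assembled at 2 to 1, the ratio of their transcripts was compared within each mouse. The log2 ratio of *Col4a1* to *Col4a2* was -0.84 ± 0.12 (SD, n = 6) in established WT and -0.63 ± 0.07 (n = 7) in established Fosl-2(Tg) mice. The lowest, median and highest ratios were -0.96, -0.85 and -0.63 in WT and -0.74, -0.63 and -0.51 in Fosl-2(Tg). The ratio was thus higher in Fosl-2(Tg) by 0.21 on the log2 scale, a small difference with overlap through 1 WT mouse (exact permutation test, two-sided, p = 0.00466, adjusted p = 0.0187 over 12 ratio tests). Among early mice the difference was 0.01 (exact permutation p = 0.917), and WT mice spread from -0.95 to -0.31. A ratio within a library does not depend on its scaling. Whether the difference itself differed between the cohorts was not tested.

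The minor chains *Col4a3* and *Col4a4*, which share their start region, had similar profiles over the groups. *Col4a3* had lowest, median and highest values of 7.79, 10.2 and 28.8 CPM in early WT and 6.37, 8.11 and 14.7 CPM in early Fosl-2(Tg) mice. Its established values were 6.31, 15.3 and 19.7 CPM in WT and 5.90, 8.60 and 15.0 CPM in Fosl-2(Tg). Early WT replicates 2 and 7 stood apart at 26.8 and 28.8 CPM, and the genotypes overlapped in both cohorts. Its log2 fold change was -0.67 (SE 0.29, unadjusted p = 0.0376, adjusted p = 0.796) in the early and -0.54 (SE 0.28, adjusted p = 0.236) in the established cohort. *Col4a4* had 21.2, 28.2 and 57.6 CPM in early WT and 19.9, 25.9 and 36.5 CPM in early Fosl-2(Tg) mice. In established mice it had 24.8, 30.01 and 38.6 CPM in WT and 16.0, 22.9 and 30.6 CPM in Fosl-2(Tg), where 6 of 7 mice lay below the lowest WT mouse. The log2 fold change of *Col4a4* was -0.44 in both cohorts (SE 0.21, adjusted p = 0.828, early; SE 0.14, adjusted p = 0.0736, established). It thus missed the threshold in edgeR, whereas DESeq2 called it in the established cohort (adjusted p = 0.0355).

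*Col4a5*, the chain that joins α3 and α4 in one network and α6 in another, was low in all groups and was lower in Fosl-2(Tg) tendons of the established cohort. It had lowest, median and highest values of 0.520, 1.79 and 4.57 CPM in early WT and 1.76, 2.65 and 4.97 CPM in early Fosl-2(Tg) mice. In established mice these were 0.650, 1.09 and 1.63 CPM in WT and 0.289, 0.321 and 0.786 CPM in Fosl-2(Tg). The established Fosl-2(Tg) values came from 4 to 28 counts per library, and 6 of these 7 mice lay below the lowest WT mouse. The log2 fold change was 0.45 (SE 0.34, adjusted p = 0.874) in the early and -1.26 (SE 0.31, adjusted p = 0.0310) in the established cohort. The call held in 7 of 13 fits that left out 1 established mouse, with log2 fold changes from -1.49 to -1.13. It was lost without Fosl-2(Tg) replicate 1 or 2 or WT replicate 1, 2, 5 or 6, with a highest adjusted p of 0.0682 without WT replicate 1, and was not made in females alone (-1.20, adjusted p = 0.0724). Its log2 ratio to *Col4a1* was -6.64 ± 0.49 (SD, n = 6) in established WT and -7.78 ± 0.51 (n = 7) in Fosl-2(Tg), a difference of -1.13 (exact permutation p = 0.00466, adjusted p = 0.0187). *Col4a6* lay between 0.107 and 0.685 CPM, with no fold change in the main fits. Without the count filter its established log2 fold change was positive, at 0.49 (edgeR adjusted p = 0.398). DESeq2 also gave 0.49 (adjusted p = 0.414). For *Col4a6*, the established values of 3 of 7 Fosl-2(Tg) mice exceeded every WT value.

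**Figure D2:**
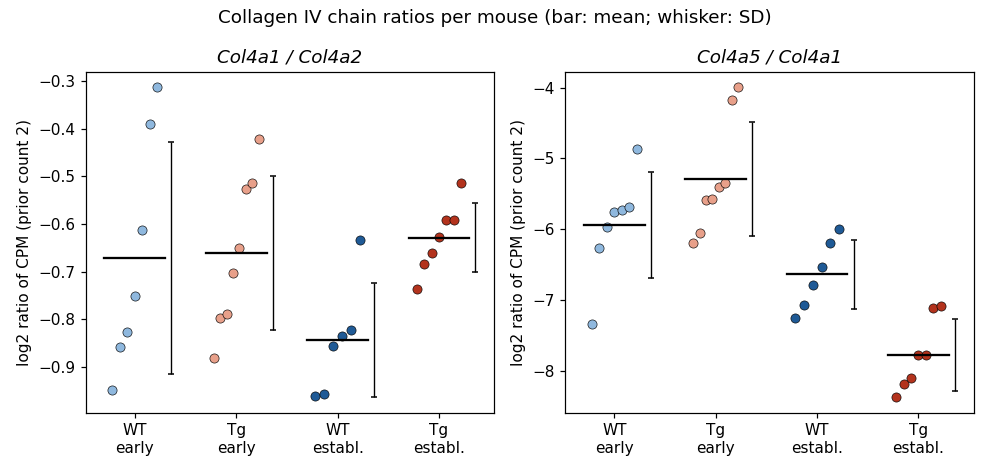
Log2 ratio of CPM (vertical axes, prior count 2) of *Col4a1* to *Col4a2* and of *Col4a5* to *Col4a1* in each mouse by group; points are mice, bars group means and whiskers SD. In the established cohort the first ratio averages -0.84 in WT and -0.63 in Fosl-2(Tg), and the second averages -6.64 and -7.78.

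*Col8a1* was lower in every established Fosl-2(Tg) mouse than in any WT mouse of the cohort. The lowest, median and highest values were 72.0, 84.6 and 283 CPM in established WT and 22.5, 35.8 and 62.2 CPM in established Fosl-2(Tg) mice. Genotypes did not overlap for *Col8a1* and for *Col15a1*, which is 2 of 9 genes tested, all lower in Fosl-2(Tg), against 2.27% of all genes in that direction. The WT mouse at 283 CPM, replicate 2, lay far above the other 5. The log2 fold change was -1.53 (SE 0.34, adjusted p = 0.0232), and it was -1.06 without WT replicate 2. The call was lost without Fosl-2(Tg) replicate 1 (adjusted p = 0.0511) and held in the other 12 fits that left out 1 mouse. Early mice had 103, 139 and 389 CPM of *Col8a1* in WT and 123, 232 and 306 CPM in Fosl-2(Tg), a log2 fold change of 0.34 (SE 0.26, adjusted p = 0.876).

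*Col8a2*, the other collagen VIII chain, was more variable than *Col8a1* among established Fosl-2(Tg) mice. It had lowest, median and highest values of 246, 301 and 362 CPM in established WT and 43.0, 185 and 321 CPM in established Fosl-2(Tg) mice. All but 1 of the 7 Fosl-2(Tg) mice lay below the lowest WT mouse, and that 1 mouse, replicate 4, lay above 5 of 6 WT mice. Its log2 fold change of -0.73 (SE 0.33, adjusted p = 0.172) missed the threshold. Without the male Fosl-2(Tg) mouse, replicate 5, it was -0.56 (edgeR adjusted p = 0.135). Early values were 208, 336 and 384 CPM in WT and 219, 289 and 353 CPM in Fosl-2(Tg), with a log2 fold change of -0.12 (SE 0.15, adjusted p = 0.921). The log2 ratio of *Col8a1* to *Col8a2* differed by -0.48 between established genotypes (exact permutation p = 0.272, adjusted p = 0.326), a difference that did not pass the threshold.

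*Col15a1* had the largest log2 fold change of the 9 genes in the established cohort. Its lowest, median and highest values were 334, 433 and 643 CPM in established WT and 6.93, 122 and 259 CPM in established Fosl-2(Tg) mice. The ranges did not overlap, and the lowest value was that of the male Fosl-2(Tg) mouse. The log2 fold change was -1.90 (SE 0.54, adjusted p = 0.0493), which lay just inside the threshold and was lost with no filter on low counts (adjusted p = 0.0581). The call was kept in 2 of 13 fits that left out 1 mouse, those without Fosl-2(Tg) replicate 4 or 5, with log2 fold changes from -2.20 to -1.69. Its adjusted p was highest without WT replicate 2, at 0.0964, and lowest without the male Fosl-2(Tg) mouse, at 0.0168. In females alone the log2 fold change was -1.74 (adjusted p = 0.0275). Early *Col15a1* values were 404, 587 and 738 CPM in WT and 508, 627 and 787 CPM in Fosl-2(Tg), a log2 fold change of 0.17 (SE 0.15, adjusted p = 0.905).

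*Col18a1*, the precursor of endostatin, was present at low level with wide spread in each group. It had lowest, median and highest values of 8.32, 10.7 and 24.8 CPM in early WT and 10.6, 16.2 and 23.9 CPM in early Fosl-2(Tg) mice. In established mice these were 5.13, 13.9 and 21.5 CPM in WT and 4.40, 7.44 and 17.3 CPM in Fosl-2(Tg). The genotypes overlapped in both cohorts. Its log2 fold change was 0.27 (SE 0.26, adjusted p = 0.910) in the early and -0.63 (SE 0.37, adjusted p = 0.283) in the established cohort. The log2 ratio of *Col15a1* to *Col18a1* differed by -1.85 in established Fosl-2(Tg) mice, short of the threshold after adjustment (exact permutation p = 0.0268, adjusted p = 0.0643).

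**Figure D3:**
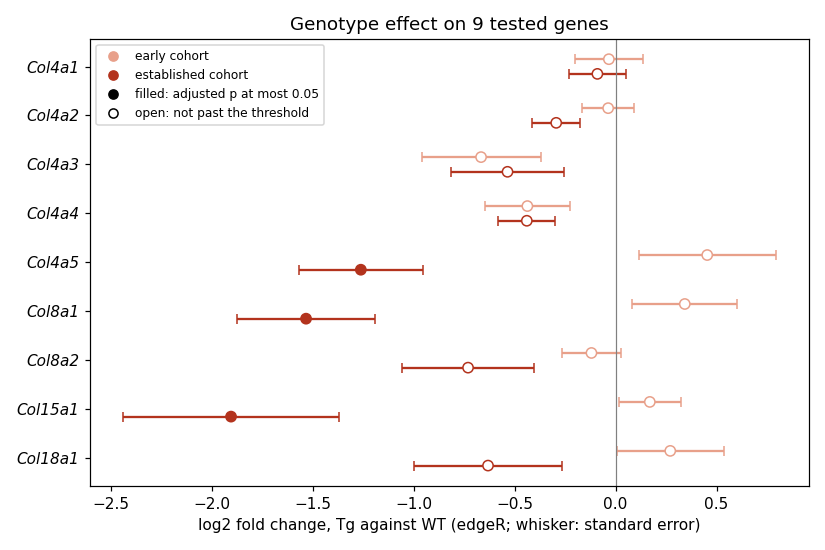
Log2 fold change of Fosl-2(Tg) against WT (horizontal axis) for the 9 tested genes in the early (light) and established (dark) cohorts; whiskers are standard errors and filled points have an adjusted p of at most 0.05. In the established cohort *Col15a1* (-1.90), *Col8a1* (-1.53) and *Col4a5* (-1.26) are filled, and no point of the early cohort is.

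An interaction term, in 1 fit of all 4 groups, compared the genotype effects of the cohorts. The same 3 genes were called, each with a lower effect in the established cohort, against 7.43% of 16082 genes called and 4% called in that direction. The difference of log2 fold changes, established minus early, was -2.08 (adjusted p = 0.0232) for *Col15a1*, -1.88 (adjusted p = 0.0133) for *Col8a1* and -1.72 (adjusted p = 0.0347) for *Col4a5*. For *Col15a1* and *Col8a1* the call held in all 28 fits that left out 1 mouse, and for *Col4a5* in 17 of 28, without the call when the male Fosl-2(Tg) mouse was left out (-1.65, adjusted p = 0.0516). Within WT, none of the 9 genes was called between the established and the early cohort, against 5.81% of all genes, DESeq2 called none, and 1 passed at an unadjusted p under 0.05, against 22.4% of all genes. Within Fosl-2(Tg), 5 of 9 were lower in the established cohort, or 55.6%, against 22% of all genes (47.8% were called in either direction). These were *Col4a5* (log2 fold change -2.66, adjusted p = 2.03e-06), *Col8a1* (-2.49, adjusted p = 1.24e-06), *Col15a1* (-2.37, adjusted p = 2.48e-05), *Col18a1* (-0.92, adjusted p = 0.0194) and *Col8a2* (-0.67, adjusted p = 0.0268). With library totals alone, which moved the median of all genes by 0.76 here, *Col18a1* and *Col8a2* were not called and *Col8a2* turned to 0.0278. Of 7 genes called under that scaling, *Col15a1*, *Col8a1* and *Col4a5* were lower. *Col4a1* to *Col4a4* were higher, by at most 0.70 and so by less than the median shift. Library totals called 12836 of all 16082 genes in this comparison. The interaction and both stage comparisons use the same groups and are not independent, and age and sex go with the cohort.

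The other genes of the basement membrane were taken as a list of 24 laminin, nidogen, perlecan, agrin and collagen-binding genes. Of 23 tested genes, 4 were called lower and none higher in the established cohort, or 17.4%, beside 3.37% of all genes called lower, with a median log2 fold change of -0.16. *Sparc*, which encodes a collagen-binding matricellular protein, had lowest, median and highest values of 10257, 14984 and 17685 CPM in WT and 463, 2227 and 8034 CPM in Fosl-2(Tg). Its ranges did not overlap, and its log2 fold change was -2.19 (SE 0.52, adjusted p = 0.0292). The laminin β3 gene *Lamb3* stood at 0.914, 1.42 and 3.22 CPM in WT and at 0.193, 0.477 and 0.745 CPM in Fosl-2(Tg) (log2 fold change -1.66, SE 0.34, adjusted p = 0.0190). *Npnt*, which encodes the integrin ligand nephronectin, differed by -0.92 (SE 0.20, adjusted p = 0.0215), and the laminin α5 gene *Lama5* by -0.83 (SE 0.22, adjusted p = 0.0414). For *Lama5* the values ran from 23.8 to 30.2 CPM in WT and from 6.23 to 23.6 CPM in Fosl-2(Tg), without overlap. Of the 23 genes, 10 had positive and 13 negative log2 fold changes, from -2.19 to 0.57. At an unadjusted edgeR p under 0.05, 10 of the 23 were lower and none higher, beside 13.1% of all genes lower. With 1 mouse left out in turn, *Lamb3* and *Npnt* were called in all 13 fits, *Sparc* in 7 and *Lama5* in 2. None of the 23 was called by edgeR or DESeq2 in the early cohort. There 1 was higher and 1 lower at an unadjusted p under 0.05, beside 6.06% of all genes.

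**Figure D4:**
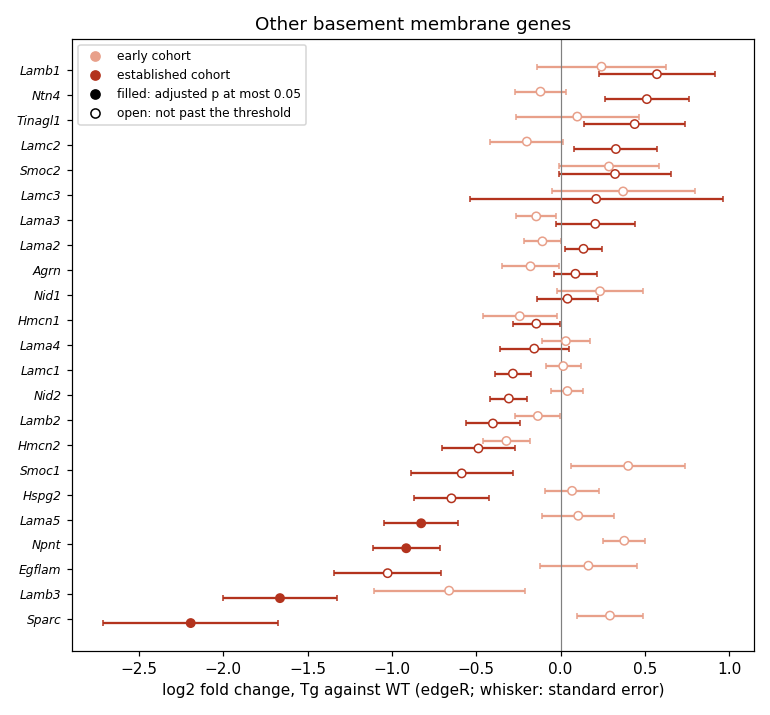
Log2 fold change of Fosl-2(Tg) against WT (horizontal axis) for 23 other basement membrane genes, in order of the established cohort, in the early (light) and established (dark) cohorts; whiskers are standard errors and filled points have an adjusted p of at most 0.05. The 4 filled points, *Sparc*, *Lamb3*, *Npnt* and *Lama5*, lie below 0 in the established cohort, and 10 genes lie above 0 there.

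Among 7 genes that fold, modify or cross-link collagen IV, 1 was called lower in established Fosl-2(Tg) mice, and among 10 receptors 1 was, beside 3.37% of all genes. Counts this small are not read as a result about either list. It was *Loxl2*, a lysyl oxidase known to cross-link collagen IV, with 522, 598 and 938 CPM as lowest, median and highest values in WT and 79.0, 247 and 326 CPM in Fosl-2(Tg), without overlap (log2 fold change -1.46, SE 0.28, adjusted p = 0.0151). Among the receptors, the collagen-binding integrin gene *Itga2* was lower, with 99.7, 121 and 155 CPM in WT and 25.1, 51.2 and 99.7 CPM in Fosl-2(Tg), with overlap through 1 mouse (log2 fold change -1.24, SE 0.23, adjusted p = 0.0141). Both calls held in all 13 fits that left out 1 mouse. The remaining 6 assembly genes and 9 receptors were not called in the established cohort. At an unadjusted edgeR p under 0.05, 3 of the 7 assembly genes and 6 of the 10 receptors were lower there. None was higher, and 13.1% of all genes were lower at that p. None of either list was called in the early cohort by edgeR or DESeq2. At an unadjusted p under 0.05 no assembly gene passed there, and 1 receptor was higher and 2 were lower, beside 6.06% of all genes.

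Fibril collagen genes were followed as the main collagens of tendon. Of 5 such genes, *Col1a1* (log2 fold change -2.50, SE 0.63, adjusted p = 0.0356) and *Col1a2* (-2.23, SE 0.57, adjusted p = 0.0367) were called lower in the established cohort, beside 3.37% of all genes. They were called in 5 and 4, respectively, of 13 fits that left out 1 mouse. Relative to *Col1a1* within each mouse, *Col4a1* was higher in established Fosl-2(Tg) by 3.10 on the log2 scale (exact permutation p = 0.00175, adjusted p = 0.0187). The log2 ratio of *Col4a1* to *Col1a1* was -9.27 ± 0.74 (SD, n = 6) in WT and -6.17 ± 1.77 (n = 7) in Fosl-2(Tg) mice. With 1 mouse left out in turn, replicate 5 included, the difference ranged from 2.60 to 3.38 and passed the threshold in all 13 tests. *Col15a1* was also higher relative to *Col1a1*, by 0.70 (exact permutation p = 0.0122, adjusted p = 0.0367), which held in 2 of 13 tests that left out 1 mouse, those without Fosl-2(Tg) replicate 5 or 6. Neither ratio passed the threshold in the early cohort, with differences of -0.68 and -0.44 (adjusted p = 0.130 and 0.111, exact permutation tests).

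Markers of the cells that carry basement membranes were followed beside the collagens. Over all genes tested in the established cohort, edgeR called 6.51%, and 3.37% were called lower. None of 12 endothelial markers was called by edgeR or DESeq2 in the established cohort (median log2 fold change -0.23, none at an unadjusted p under 0.05), and their summed level ran from 27.5 to 144 CPM in WT and from 31.6 to 117 CPM in Fosl-2(Tg). Of 11 mural cell markers, *Acta2*, encoding smooth muscle actin, was called lower (log2 fold change -0.72, SE 0.19, adjusted p = 0.0444). The mural sums ran from 575 to 843 CPM in WT and from 472 to 678 CPM in Fosl-2(Tg). *Cnn1*, also a mural marker and named after its values were seen, had a log2 fold change of 0.60 (SE 0.24, adjusted p = 0.127). In all, 2 of the 11 had positive and 9 negative log2 fold changes. Of 6 tested Schwann cell markers, the neuregulin receptor gene *Erbb3* was called higher (0.76, SE 0.20, adjusted p = 0.0422), with sums from 41.3 to 111 CPM in WT and from 53.5 to 326 CPM in Fosl-2(Tg). *S100b* of the same list, named after its values were seen, had a log2 fold change of -0.77 (SE 0.24, adjusted p = 0.0651) and was called lower by DESeq2 and voom. Of 7 tenocyte markers, *Tnmd* (-2.03, SE 0.53, adjusted p = 0.0386) and *Scx* (-1.27, SE 0.34, adjusted p = 0.0444) were called lower, and all 7 had negative log2 fold changes. Of 5 macrophage markers, the scavenger receptor gene *Cd163* was called higher (1.07, SE 0.14, adjusted p = 0.00465), with sums from 348 to 517 CPM in WT and from 455 to 721 CPM in Fosl-2(Tg). The 11 skeletal muscle markers were all lower in fold change (median -1.71) with none called by edgeR or DESeq2 and none at an unadjusted p under 0.05, and their sums ran from 239 to 55060 CPM in WT and from 160 to 15936 CPM in Fosl-2(Tg). Keratinocyte markers summed to 49.9 to 77.5 CPM in WT, with *Krt5* at 0 in every mouse, and to 27.1 to 77.2 CPM in Fosl-2(Tg). Adipocyte markers summed to 6.501 to 35.7 CPM and 5.89 to 50.3 CPM, and erythroid markers to 8.94 to 20.1 CPM and 10.2 to 126 CPM, respectively. The count filter left 4 of 7 keratinocyte, 2 of 6 adipocyte and 4 of 5 erythroid markers for the edgeR test. None of these was called by edgeR, and at an unadjusted p under 0.05 only 3 erythroid markers passed, all higher. DESeq2 called 4 erythroid markers higher, beside 2177 of all 18592 genes called in either direction. Of the marker genes called, only *Cd163* was called in all 13 fits that left out 1 mouse, and *Acta2*, *Erbb3*, *Tnmd* and *Scx* were each called in 4. The part of these markers in the genotype differences was not tested, beyond the fits with a muscle score and without the muscle-rich libraries. With the muscle score as a covariate 4 collagen genes were called in the established cohort, *Col4a4* being the fourth (adjusted p = 0.0193). Without the 14 libraries of both cohorts above 10000 CPM of muscle markers, 3 WT and 5 Fosl-2(Tg) established mice were left and none of the 9 genes was called, with log2 fold changes of -1.98 for *Col15a1* (adjusted p = 0.0813), -1.85 for *Col8a1* (adjusted p = 0.0847) and -0.92 for *Col4a5* (adjusted p = 0.253). Only 113 of 16240 genes were called in that comparison.

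The genes varied together in separate groups from mouse to mouse. For this description, each log2 CPM value was taken as its deviation from the mean of its group, over 28 mice. Values of 1 library share its scaling and composition. The male Fosl-2(Tg) mouse, replicate 5, had the lowest *Col15a1* (6.93 CPM, median 122) and *Col8a2* (43.0 CPM, median 185) of its group. It was also lowest there in tenocyte markers and fibril collagens, and no correlation was computed without it. Paired genes of collagen IV went together, with a Pearson's r of 0.858 for *Col4a1* with *Col4a2* and 0.838 for *Col4a3* with *Col4a4*, whereas r was 0.003 for *Col4a1* with *Col4a3*. How reads over the shared exon bases of these pairs were counted is not stated. The highest r between any 2 of the genes was 0.912, for *Col8a2* with *Col15a1*, which lie far apart on the same chromosome. The 2 collagen VIII chains had an r of 0.298, and *Col4a4* with *Col4a5* had an r of -0.726.

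The mean of the tenocyte markers went with *Col15a1* (r = 0.928) and *Col8a2* (r = 0.811), and the fibril collagens with *Col15a1* (r = 0.872) and *Col8a1* (r = 0.787). *Col18a1* went with endothelial (r = 0.758), mural (r = 0.746) and skeletal muscle markers (r = 0.645). *Col4a1* had an r of 0.702 with the other basement membrane genes, 0.546 with endothelial and 0.497 with skeletal muscle markers. *Col4a4* had its highest r with keratinocyte markers (0.631), and *Col4a3* had its highest with basement membrane receptors (0.600). The keratinocyte mean rests on 4 of 7 markers, since *Krt5*, *Krt14* and *Krt1* were below the count filter. The adipocyte mean rests on 2 of 6.

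**Figure D5:**
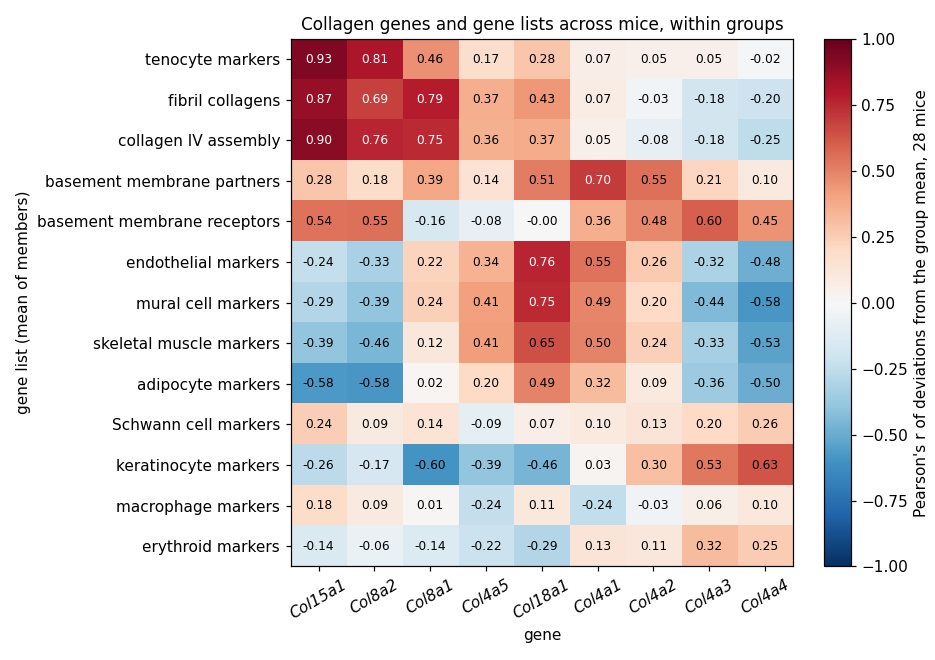
Pearson's r (color scale and printed values) between 9 collagen genes (columns) and the mean log2 CPM of 13 gene lists (rows), from deviations from the group mean over 28 mice. *Col15a1* and *Col8a2* have their highest values with tenocyte markers (0.928 and 0.811), and *Col18a1* with endothelial markers (0.758). Means use the genes past the count filter, which left 4 keratinocyte and 2 adipocyte markers.

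Among 16073 genes ranked by the same measure, the genes closest to *Col15a1* were *Col6a1* (r = 0.973), *Thy1*, *Tmem119*, *Gm47345* and *Creb3l1* (r = 0.950). *Col6a1* encodes a chain of the microfibrillar collagen VI, *Thy1* a surface protein of fibroblasts, and *Creb3l1* a transcription factor of the secretory pathway. The genes closest to *Col18a1* were *Apln* (r = 0.906), *Cd300lg*, *Heyl*, *St8sia2* and *Fbn2* (r = 0.862), of which *Apln* encodes a peptide made by endothelial tip cells and *Heyl* a Notch target of mural cells. For *Col8a1* they were *Bcat1* (r = 0.904), *Nbas*, *Slc41a2*, *Maged1* and *Copg1* (r = 0.867), of which *Nbas* and *Copg1* act in transport between endoplasmic reticulum and Golgi. For *Col4a1* they were *Sox7* (r = 0.790), *Usp2*, *Prpf19*, *Hey1* and *Nr4a1* (r = 0.773), of which *Sox7* and *Hey1* are transcription factors of endothelium. *Sox7* and *Hey1* were near the floor, at means of 0.945 and 0.608 CPM, whereas *Usp2*, *Prpf19* and *Nr4a1* averaged 41.4, 63.6 and 24.7 CPM. Of the genes closest to *Col18a1*, *Apln*, *Heyl* and *St8sia2* were low as well, at 1.33, 1.15 and 0.651 CPM.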

How the data were processed

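RNA of tail tendon fascicles was sequenced after rRNA depletion with a kit that does not mark strand. The authors mapped reads to GRCm39 with STAR and the GENCODE M26 annotation, and the deposited values are raw counts per gene from featureCounts. The strand setting and the handling of multi-mapping reads are not given in the sources used here. Gene symbols and positions were taken from GENCODE M39 (25505 of 25719 identifiers named), and exon lengths are the union of its exons.

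Genotypes were compared within each cohort with edgeR 4.0.16 in R 4.3.3 (quasi-likelihood test, no covariate, filterByExpr with a minimum count of 10 and a minimum total of 15, TMM, Benjamini-Hochberg over all genes tested), and genes were called at an adjusted p of at most 0.05. The interaction and stage contrasts came from a fit of the 4 groups. Ratios used log2 CPM with a prior count of 2 and two-sided exact permutation tests over 6435 (early) or 1716 (established) groupings. CPM per mouse was scaled over all 28 libraries, fold changes within each cohort. SE is the log2 fold change divided by the root of F. The scripts were tested on simulated data.

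The genes and all lists were chosen with earlier results of these data known. Named genes were the 10 collagen genes, *Fosl2*, up to 8 genes called per list, and the 5 genes most alike *Col4a1*, *Col8a1*, *Col15a1* and *Col18a1*. *Cnn1* and *S100b* were named after their values were seen. Alternatives were DESeq2 1.42.0, limma 3.58.1 voom with quality weights, RLE scaling, library totals, other filters, the replicate block, all libraries in 1 fit, other scaling genes, muscle score and sex covariates, females only and each library left out; for the ratios, medians and a prior count of 0.5. Leaving out the muscle-rich libraries was chosen after seeing the data. In the early cohort, mice with the same replicate number deviated together in all 7 pairs (r from 0.129 to 0.363), and in the established cohort not in all 6 (r from -0.223 to 0.688). No label says what the numbers share. Of the mice with a partner, 1 of 14 early and 5 of 12 established mice correlated best with their own number. Whether the numbers mark pairs is therefore not known in either cohort. Only the alternative with the replicate block uses the numbers. The main tests of both cohorts leave them out.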

Additional observations from a re-analysis of the deposited data

Results flagged for a closer look

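*Col8a1* of established WT replicate 2, at 283 CPM, lay apart from the other 5 mice of its group. The gap to the next mouse was 0.76 of the range of the group on the log2 scale. It was the only such mouse among 40 groups of values examined, where chance marks about 1 in 20. The *Col8a1* difference between genotypes remained past the threshold without it, at a log2 fold change of -1.06.

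The genotype effect differed between the cohorts for 3 genes by the interaction term of edgeR. The effect in the established cohort minus that in the early cohort was -2.08 for *Col15a1* (adjusted p = 0.0232), -1.88 for *Col8a1* (adjusted p = 0.0133) and -1.72 for *Col4a5* (adjusted p = 0.0347). Each gene had a positive log2 fold change in the early cohort that did not pass the threshold. Age, sex and cohort cannot be told apart in this difference.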

How the results depend on the processing

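Depth limited *Col4a5* (4 to 84 counts per library) and *Col4a6*, and the calls of *Col15a1* and *Col4a5* in the established cohort lay close to the threshold. Collagen genes called in the established cohort numbered 3, and between 0 (without Fosl-2(Tg) replicate 1) and 4 (without Fosl-2(Tg) replicate 4) when 1 mouse was left out, with 1 called without Fosl-2(Tg) replicate 2 or WT replicate 1, 2, 5 or 6. The number was 2 in females alone, 2 with no filter on low counts (*Col15a1* being lost, adjusted p = 0.0581), 2 with the filter at a mean of 1 CPM and 4 with DESeq2. Without the muscle-rich libraries 0 were called in the established and 1 in the early cohort (*Col8a1*, log2 fold change 0.93, adjusted p = 0.0393). These fits held 3 against 5 and 4 against 2 mice, and called 113 of 16240 and 121 of 15402 genes. In the comparison of WT between cohorts the number was 0 to 1, with 1 called without early WT replicate 2 or established WT replicate 2. Basement membrane partner genes called in the established cohort numbered 4, and 8 with library totals, 0 without the muscle-rich libraries and 2 to 5 with 1 mouse left out, 2 being left without Fosl-2(Tg) replicate 1 or 2 or WT replicate 1, 2 or 4. DESeq2 called 6 of them, beside 2177 of all 18592 genes. Library totals called 7544 of all 15862 genes in that cohort.

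Scaling by library totals moved the median of all genes by -0.19 (early), 0.33 (established), 0.53 (interaction), 0.23 (WT between cohorts) and 0.76 (Fosl-2(Tg) between cohorts). Under it the established log2 fold changes of *Col4a1* and *Col4a2* became 0.226 and 0.0230. That of *Col8a2* between Fosl-2(Tg) cohorts became 0.0278. There 7 collagen genes in place of 5 were called, 3 of them lower, beside 12836 of all 16082 genes called. The established log2 fold change of *Col4a1* was also positive with voom (0.0404), in females alone (0.0098) and without the muscle-rich libraries (0.206). It ranged from -0.16 to 0.0122 with 1 mouse left out. Among early mice it ranged from -0.11 to 0.0804, and that of *Col4a2* from -0.11 to 0.0337.

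With the replicate block, 2 collagen genes and 2 partner genes were called in the established cohort, *Col4a5* being lost (-1.40, adjusted p = 0.0551), and 5 of 12 mice with a partner correlated best with their own number. In the early cohort the block left 0 collagen and 0 partner genes called, so that it changed no call there, and 1 of 14 mice correlated best with its own number.

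The established ratio differences kept their direction. With medians in place of means they missed the threshold, at 0.22 (*Col4a1* to *Col4a2*), -1.12 (*Col4a5* to *Col4a1*), 2.94 (*Col4a1* to *Col1a1*) and 0.69 (*Col15a1* to *Col1a1*), and without the muscle-rich libraries they were 0.30, -1.08, 3.16 and 0.74. That last test says nothing about stability, since the 56 groupings of 3 against 5 mice allow no exact p below 0.0179 before adjustment over the 12 tests, and none passed. With 1 mouse left out, the ratio of *Col15a1* to *Col1a1* ranged from 0.54 to 0.82 and that of *Col15a1* to *Col18a1* from -2.24 to -1.41 in the established cohort, the latter passing the threshold without Fosl-2(Tg) replicate 4. The early ranges were -0.0351 to 0.0707 for *Col4a1* to *Col4a2*, 0.40 to 0.72 for *Col8a1* to *Col8a2*, -0.84 to -0.50 for *Col4a1* to *Col1a1* and -0.57 to -0.35 for *Col15a1* to *Col1a1*. The last 3 passed the threshold without early WT replicate 5, and the last 2 also without early Fosl-2(Tg) replicate 1. The cause of these changes was not tested.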
